A study of Arabidopsis thaliana with 9 samples.

Results

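The control oscillation zone of the Arabidopsis thaliana root is described here from 3 of the 9 samples of a study of the root clock, and from 1 of the 3 value columns of its expression table. The control samples were Col0 with the label WT, and their titles place them at the minimum of the oscillation. Total RNA came from zones of the root cut out by hand at 7 dpi (a term the labels do not spell out) from plants grown under 16 h of light and 8 h of dark. The activity of DR5::Luciferase, an auxin response promoter joined to a firefly light reporter, had been followed before dissection. The other 6 samples, from the potent and arf7 lines, are not described. The table holds 31124 loci, and all were ranked by their control value. The authors had already combined the 3 control samples into 1 value per locus, so no spread between samples and no test can be given. Apart from the count just named, every statement on levels below describes that single profile.

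In the oscillation zone, just behind the root meristem, the response to auxin rises and falls in a regular rhythm. Each peak marks a patch of pericycle cells that can later form a lateral root, and the minimum is the phase of low reporter signal between peaks. Auxin acts there by binding TIR1/AFB receptors, which leads to the breakdown of Aux/IAA repressors and frees ARF transcription factors to act on their targets. A hand-cut zone holds all concentric layers of the root, the epidermis, cortex, endodermis, pericycle and vascular tissue. In such a bulk sample, fewer cells of a type and less RNA per cell cannot be told apart.

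The values are FPKM, in which fragment counts are divided by the length of the transcript and by the library total, so levels of different genes can be set side by side per length. They summed to 905924 over all loci. In all, 15957 loci (51.3%) had at least 1 FPKM, 8673 (27.9%) at least 10 FPKM, 1740 (5.59%) at least 100 FPKM and 114 (0.366%) at least 1000 FPKM. The median was 1.20 FPKM over all loci and 6.94 FPKM over the 20179 loci above 0. The table lists 10945 loci at 0, which is 35.2% of all. Read depth is unknown, so a low value or a 0 is not shown to be absence. A 0 is therefore written below as listed at 0.

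No single locus dominated the sum, but most of it lay in a small part of the loci. The 10 highest loci held 4.72% of the summed FPKM, the 25 highest 8.85%, the 100 highest 20.6% and the 1000 highest 60.9%. It took 579 loci to reach 50% of the sum and 5127 to reach 90%. The 26100 protein-coding nuclear loci held 92.6% of the sum, with a median of 2.44 FPKM, and 7346 of them were listed at 0. Of these 26100 loci, 57.7% had at least 1 FPKM, 31.7% at least 10 FPKM, 6.25% at least 100 FPKM and 0.41% at least 1000 FPKM.

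**Figure D1:**
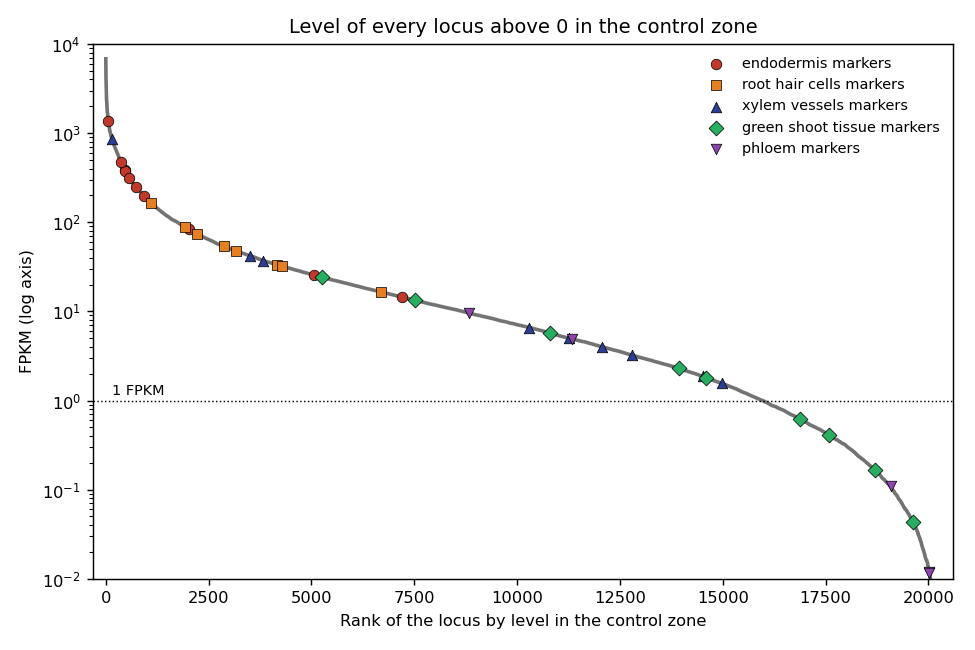
The grey line plots the FPKM of each locus above 0 (log axis) against its rank in the control zone, and coloured symbols place the marker genes of 5 tissues on it, leaving out markers under 0.01 FPKM. Endodermis markers lie between 14.4 and 1376 FPKM, root hair markers between 16.6 and 165 FPKM, and no phloem marker is above 9.57 FPKM.

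Short arabinogalactan proteins led the nuclear protein-coding genes. These are secreted, heavily glycosylated proteins of the cell wall and plasma membrane, and the shortest of them, the AG peptides, consist of little more than a signal peptide, a few prolines and a signal for a lipid anchor. AGP21 (AT1G55330) was the highest of all protein-coding loci with 4689.5 FPKM, AGP14 (AT5G56540) had 3208 FPKM and AGP13 (AT4G26320) had 2003 FPKM. Their coding sequences are shown, from the start to the stop codon, because they let the reader see how small and how alike these abundant products are. They were read from RefSeq's TAIR10.1 assembly, where each is a single coding exon: AGP21 at chr1:20648634-20648810 on the minus strand, AGP14 at chr5:22893243-22893425 on the plus strand and AGP13 at chr4:13317235-13317414 on the minus strand. Capitals mark the proline codons. Sugar chains of such proteins sit on prolines that have been hydroxylated, and which of those marked carry them was not tested.
AGP21: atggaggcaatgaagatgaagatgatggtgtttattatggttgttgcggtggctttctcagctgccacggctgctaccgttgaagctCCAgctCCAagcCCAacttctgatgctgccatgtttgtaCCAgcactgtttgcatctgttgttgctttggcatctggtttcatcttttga
AGP14: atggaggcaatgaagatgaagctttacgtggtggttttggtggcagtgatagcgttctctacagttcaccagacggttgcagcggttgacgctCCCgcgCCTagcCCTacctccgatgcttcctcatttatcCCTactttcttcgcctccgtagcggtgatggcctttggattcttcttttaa
AGP13: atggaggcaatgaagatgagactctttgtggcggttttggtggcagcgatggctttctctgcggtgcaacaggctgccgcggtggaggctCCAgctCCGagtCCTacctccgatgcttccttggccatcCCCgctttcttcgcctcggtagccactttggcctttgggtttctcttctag

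The 3 sequences encode 58, 60 and 59 residues, and each holds 4 proline codons. Codons for proline, alanine, serine and threonine made up 46.6% of the codons of AGP21, 41.7% of AGP14 and 47.5% of AGP13. AGP13 and AGP14 were identical at 77.0% of aligned coding bases, AGP21 and AGP13 at 68.9%, and AGP21 and AGP14 at 67.2%. Across the 59 arabinogalactan protein loci, which include the fasciclin-like members, the median was 52.5 FPKM and 8 were listed at 0. At least 100 FPKM was reached by 23, against 6.25% of all protein-coding loci. The class took 3.25% of the summed FPKM and 11 of the 100 highest loci, and its 3 highest members held 35.6% of its own sum. After AGP21 and AGP14 came AGP2 with 2605 FPKM, AGP24 with 2331 FPKM and AGP9 with 2047 FPKM. The lowest member above 0 was FLA5 with 0.271 FPKM.

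AGP21 lies under a second gene on the other strand. AT1G55335, a 76-residue open reading frame with no described product, had 3033 FPKM and the 10th highest level of all. Its whole span of 364 bases (chr1:20648469-20648832, plus strand) falls inside the 427 bases of AGP21. The library protocol named in the labels does not mark strand, so reads of such partners cannot be told apart. The same arrangement recurs further down: AT5G10435, the second highest protein-coding locus with no described product at 816 FPKM, lies wholly opposite AGP4, which had 1632 FPKM. The antisense RNA AT2G09785 (3012 FPKM, 168 bases) lies wholly opposite UBQ6, a ubiquitin gene with 615 FPKM. MIR5657, a microRNA precursor of 85 bases with 2877 FPKM, lies inside AT5G27660 on the other strand, which had 16.7 FPKM. Of the 100 highest loci, 25 overlap another annotated gene, 23 of them a gene on the opposite strand. The share over all loci was not computed, so these counts are not shown to be particular to abundant loci.

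The 25 highest loci comprised 19 protein-coding nuclear loci, 3 organellar loci and 3 short RNA loci. The organellar ones, ATMG00030 with 6823 FPKM, ATMG00020 with 4202 FPKM and ATCG00010 with 4001 FPKM, have no match in the annotation used and are given by identifier only. AT2G35382, a snoRNA of 76 bases, had 5362 FPKM and ranked second. Per-length values of such short loci rest on few positions.

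Among the 19 protein-coding loci were enzymes and carriers of energy metabolism. GAPC1, the cytosolic glyceraldehyde-3-phosphate dehydrogenase of glycolysis, had 3836 FPKM, and AAC1, the carrier that exchanges ADP and ATP across the inner mitochondrial membrane, had 2779 FPKM. AT1G62480, annotated as a vacuolar calcium-binding protein-like protein, had 4442 FPKM. The glutathione transferases GSTF8 and GSTU19, which join glutathione to reactive compounds, had 3151 and 2318 FPKM. AT5G60390, an elongation factor of the EF-Tu family, had 2476 FPKM. CCoAOMT1, a methyltransferase of lignin precursor synthesis, had 2635 FPKM. PIP1B, a water channel of the plasma membrane, had 2340 FPKM, and TIP2, one of the vacuolar membrane, had 2256 FPKM. GASA1 and GASA4, small cysteine-rich secreted peptides of a gibberellin-regulated family, had 2461 and 2184 FPKM. The lipid transfer family protein AT5G46890 had 2699 FPKM.

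**Figure D2:**
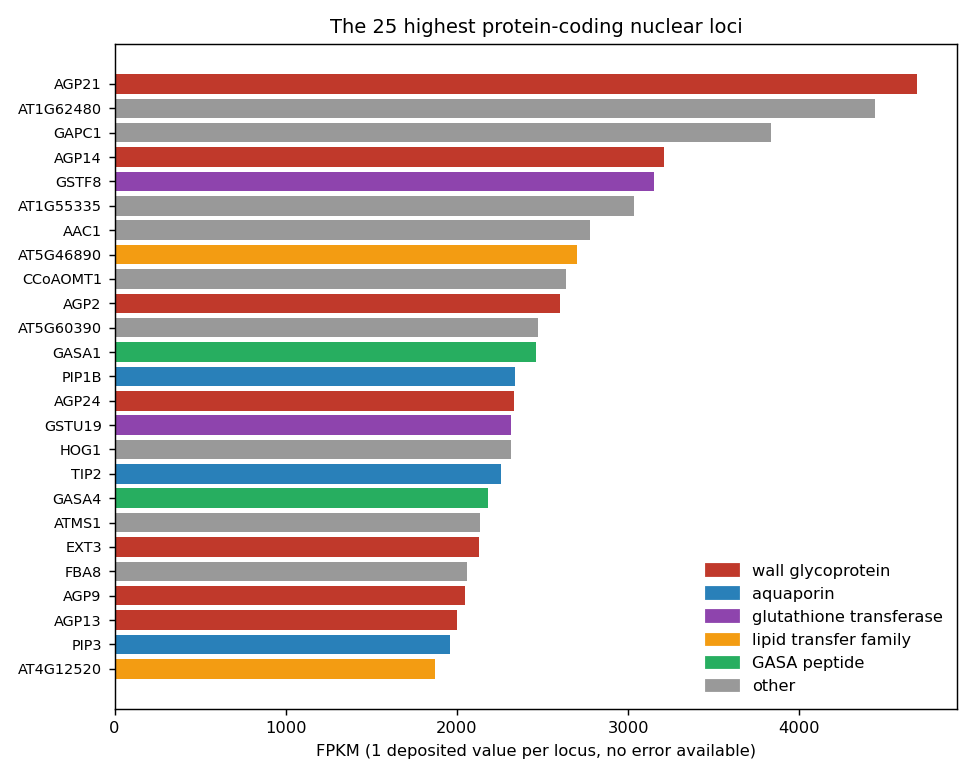
Bars give the deposited FPKM of the 25 highest protein-coding nuclear loci in the control zone, coloured by group, with no error bars because the 1 value used per locus already combines the samples. Arabinogalactan proteins and 1 extensin make up the red bars, from AGP21 at 4689.5 FPKM to AGP13 at 2003 FPKM.

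HOG1 and ATMS1, also among the 25 highest, belong to the cycle that supplies methyl groups. In this cycle methionine synthase makes methionine, S-adenosylmethionine synthetase activates it, and S-adenosylhomocysteine hydrolase and adenosine kinase clear what is left after the methyl group is used. All 10 genes of the cycle that were looked up had at least 100 FPKM, against 6.25% of all protein-coding loci, with a median of 1017 FPKM. These genes include HOG1 and ATMS1 and were chosen with earlier results of these data known. The count therefore describes them and is no test of the cycle. The hydrolase genes HOG1 and SAHH2 had 2314 and 724 FPKM. The methionine synthase genes ATMS1 and MS2 had 2134 and 184 FPKM. The 4 synthetase genes lay close together, with 1185 FPKM for SAM1, 1031 FPKM for SAM2, 1024 FPKM for MTO3 and 1011 FPKM for MAT3. The kinases ADK1 and ADK2 had 424 and 283 FPKM. Together the 10 genes held 1.14% of the summed FPKM.

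Ribosomal proteins formed the largest of the 26 functional classes drawn from the annotation's product names. The 330 loci held 10.9% of the summed FPKM, with a median of 104 FPKM. Of them, 166 had at least 100 FPKM, against 6.25% of all protein-coding loci. No single gene led: the 3 highest held 5.06% of the class, and 21 members were among the 100 highest loci. The highest was AT3G08520, a protein of the L41 family with 25 residues and 1779 FPKM, followed by AT3G60245 with 1683 FPKM, AT3G06700 with 1539 FPKM, AT4G27090 (L14) with 1499 FPKM and AT5G02960 with 1485 FPKM. The lowest above 0 was AT2G07696 with 0.0160 FPKM, and 26 members were listed at 0. Many ribosomal proteins have near-identical copies, between which reads may be split, so single values are less certain than the class.

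The promoters of these genes are shown where they hold the telo-box, a short element well known upstream of plant ribosomal protein genes. The motif searched was AAACCCTA on either strand (TAGGGTTT when read on the other), within 250 bases before and 50 after the annotated start. It occurred in 37.0% of the 330 ribosomal protein promoters and in 6.29% of all 26100 protein-coding promoters. The 120 bases before the start are printed for 4 abundant members, from the TAIR10.1 assembly and 5′ to 3′ on the strand of the gene, with the motif in capitals. They are AT3G08520 (chr3:2585881-2586000, plus strand), AT4G27090 (chr4:13595253-13595372, minus strand), AT2G19730 (an L28e protein with 1402 FPKM, chr2:8511366-8511485, plus strand) and AT5G15200 (1225 FPKM, chr5:4936430-4936549, minus strand).
AT3G08520: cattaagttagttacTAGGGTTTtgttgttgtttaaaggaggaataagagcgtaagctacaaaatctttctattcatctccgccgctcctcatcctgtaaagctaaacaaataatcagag
AT4G27090: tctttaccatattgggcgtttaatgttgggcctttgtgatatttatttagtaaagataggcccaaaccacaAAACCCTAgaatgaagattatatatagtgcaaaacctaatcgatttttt
AT2G19730: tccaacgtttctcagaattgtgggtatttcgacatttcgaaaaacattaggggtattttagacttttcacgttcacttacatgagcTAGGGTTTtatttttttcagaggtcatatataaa
AT5G15200: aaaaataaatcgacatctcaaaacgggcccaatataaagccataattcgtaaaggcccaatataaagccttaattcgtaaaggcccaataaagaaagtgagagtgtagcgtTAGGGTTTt

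A second motif, GGCCCA on either strand, occurred in 52.7% of ribosomal protein promoters and in 15.3% of all. For the TATA element TATAAA the shares were 55.8% and 52.4%, and for the auxin response element core TGTCTC they were 13.9% and 14.2%. The telo-box share by level was 18.7% of the 107 protein-coding loci at 1000 FPKM or more, 8.52% of those from 100 to under 1000 FPKM, 4.60% from 10 to under 100 FPKM, 5.53% from 1 to under 10 FPKM and 8.10% of those listed at 0. The GGCCCA share was 34.6% in the highest of these groups and 7.21% at 0. Ribosomal protein genes are themselves part of the higher groups, and a match of letters does not show a bound site. Abundant loci also encoded shorter proteins: the median was 171 residues at 1000 FPKM or more, 237 from 100 to under 1000 FPKM, 355 from 10 to under 100 FPKM, 437 from 1 to under 10 FPKM and 252 at 0, against 347 over all protein-coding loci.

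**Figure D3:**
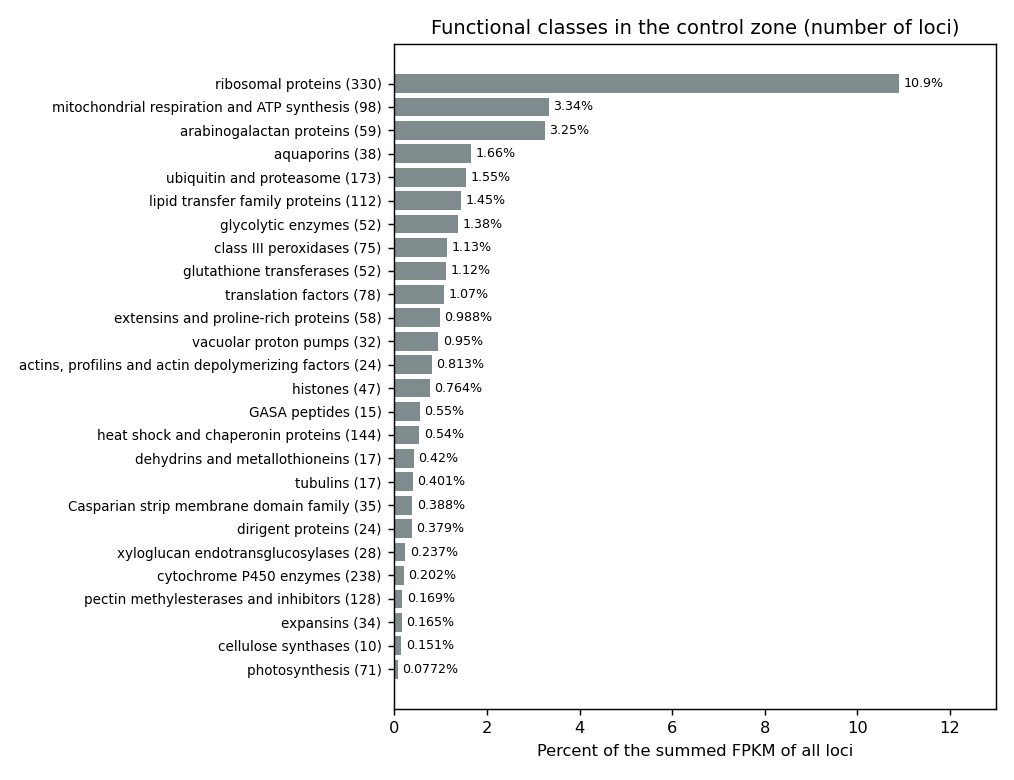
Each bar gives the percent of the summed FPKM of all loci held by 1 functional class in the control zone, with the number of loci in brackets. Ribosomal proteins reach 10.9%, mitochondrial respiration and ATP synthesis 3.34%, arabinogalactan proteins 3.25% and photosynthesis 0.0772%.

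The 26 classes together held 1989 loci, 34% of the summed FPKM and 68 of the 100 highest loci. They follow the wording of product names, so some members lie outside the named function. Examples are ATKDSA2 and hemb2 in the glycolytic class and LEC1 in the histone class. Mitochondrial respiration and ATP synthesis came second with 3.34% over 98 nuclear loci and a median of 73.9 FPKM. Its highest members after AAC1 were the ATP synthase subunit AT5G59613 with 1719 FPKM, the cytochrome c oxidase subunits AT3G62400 with 1674 FPKM and AT4G37830 with 1439 FPKM, and the electron carrier CYTC-1 with 1019 FPKM. Glycolytic enzymes held 1.38%: after GAPC1 came the aldolase FBA8 with 2062 FPKM, the enolase LOS2 with 1397 FPKM, GAPC2 with 1109.8 FPKM and the triosephosphate isomerase TPI with 914 FPKM. Proton pumps of the vacuole held 0.950% over 32 loci, with a median of 192 FPKM and TUF highest at 1063 FPKM. Photosynthesis genes held 0.0772% over 71 nuclear loci, with a median of 2.86 FPKM. Its highest members were ELIP1, a light stress protein of the chlorophyll-binding family, with 101 FPKM and the photosystem II subunits PSBX with 70.6 FPKM and PSBR with 65.3 FPKM.

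Water channels were few but abundant. The 38 aquaporin loci held 1.66% of the summed FPKM, and 18 had at least 100 FPKM, against 6.25% of all protein-coding loci. Besides PIP1B and TIP2, the highest were PIP3 with 1957 FPKM, GAMMA-TIP with 1595 FPKM and PIP2A with 1081 FPKM. The lowest above 0 was NIP4;2 with 0.0815 FPKM. Among the 20 transporters of mineral nutrients that were looked up, 15 had at least 1 FPKM, against 57.7% of all protein-coding loci. The plasma membrane proton pumps AHA2 and AHA1, which energize uptake, had 483 and 138 FPKM. The phosphate transporters PHT1;4 and PHT1;1 had 101 and 62.1 FPKM, and the sulfate transporter SULTR1;2 had 44.3 FPKM. The nitrate transceptor NRT1.1 had 26.9 FPKM, and the boron channel NIP5;1 had 27.1 FPKM. IRT1, the iron transporter of iron-starved roots, and NRT1.5, which loads nitrate into the xylem, were listed at 0. HAK5, a potassium transporter of starved roots, had 0.209 FPKM.

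Wall protein and wall enzyme classes ranged widely. EXT3, an extensin that builds the wall's protein network, had 2132 FPKM and was the highest of 58 extensin and proline-rich loci, a class with 0.988% of the summed FPKM and 18 members listed at 0. Of 128 pectin methylesterases and inhibitors, which act on the gel of the wall, 66 were listed at 0, against 7346 of the 26100 protein-coding nuclear loci. At least 1 FPKM was reached by 40, against 57.7% of all protein-coding loci, led by AT4G25250 with 208 FPKM. Of 34 expansins, which loosen walls during growth, 20 had at least 1 FPKM, near the 57.7% of all protein-coding loci, with a class median of 4.91 FPKM. The highest were EXPA17 at 480 FPKM, EXPA9 at 201 FPKM, EXPB1 at 200.2 FPKM, EXPA7 at 165 FPKM and EXPA11 at 153 FPKM. Of 28 xyloglucan endotransglucosylases, which cut and rejoin wall polymers, 8 had at least 100 FPKM, against 6.25% of all protein-coding loci. XTH18 led with 316 FPKM, then XTH4 with 315 FPKM. Class III peroxidases, which cross-link wall polymers or produce reactive oxygen, held 1.13% over 75 loci, led by AT3G01190 with 1682 FPKM, AT4G30170 with 1367 FPKM and RCI3 with 1110.2 FPKM. Actin and tubulin genes, whose filaments guide secretion and cellulose deposition, included ACT2 with 1790 FPKM, the profilin PFN2 with 1811 FPKM, TUA6 with 748 FPKM and TUB4 with 544 FPKM.

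CESA4 stood apart among the 10 loci of the cellulose synthase class, which include the cellulose synthase-like gene ATCSLB05. CESA4 had 852 FPKM and held most of a class in which the 3 highest members made up 85.0%. The primary wall subunits CEV1 (also known as CESA3), CESA1 and CESA6 had 175, 140 and 120 FPKM. CESA7 and CESA8, which assemble with CESA4 in the complex of the secondary wall, had 5.01 and 3.22 FPKM. The 3 subunits of that complex thus differed widely in this profile. In the TAIR10.1 annotation CESA4 overlaps AT5G44020, an acid phosphatase gene of the same strand, by 17 bases, and AT5G44020 has no value here. The overlap with AT5G44040 on the other strand is 65 bases, and that gene had 0.891 FPKM. Of 1344 annotated protein-coding nuclear loci that have no value here, 485 (36.1%) overlap a locus with a value on the same strand. Of the protein-coding loci with a value, 0.287% overlap another locus with a value in that way. That share counts only partners that have a value. It leaves out same-strand overlaps with a locus without a value, which 489 loci with a value have. The 36.1% and the 0.287% are therefore not a like-for-like comparison. Whether fragments of AT5G44020 enter the CESA4 value was not tested. GSTF8 and MT1A, a metallothionein with 1143 FPKM, are the only members of the 100 highest loci that overlap a same-strand gene without a value.

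The identity of the tissue was read from 93 marker genes in 16 lists. Lists of the endodermis, root hair cells, non-hair epidermis and xylem vessels were the 4 in which every member had at least 1 FPKM. Lists of the root cap, the meristem and the phloem lay near 0.

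The endodermis, the layer that seals the vascular core with a lignin band called the Casparian strip, gave the highest list. All 10 markers had at least 10 FPKM, against 31.7% of all protein-coding loci, and the median was 281 FPKM. CASP1, a membrane scaffold of the strip, had 1376 FPKM and was among the 100 highest loci. The related scaffold proteins CASP2, CASP4 and CASP5 had 385, 313 and 197 FPKM. PER64, the peroxidase that polymerizes its lignin, had 478 FPKM, and ESB1, the dirigent protein that positions it, had 249 FPKM. MYB36, the transcription factor that turns on strip formation, had 83.1 FPKM. SCR, which specifies the layer, had 25.5 FPKM, and GSO1, a receptor kinase that monitors the barrier, had 14.4 FPKM. Genes of the later suberin coat were low, with GPAT5 listed at 0, FAR4 at 0.00418 FPKM and CYP86A1 at 0.0161 FPKM, except ASFT with 56.8 FPKM.

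In the epidermis, all 8 root hair genes had at least 10 FPKM, against 31.7% of all protein-coding loci, with a median of 50.5 FPKM. The expansin EXPA7 had 165 FPKM, the wall protein PRP3 88.5 FPKM, COBL9 73.3 FPKM, EXPA18 53.6 FPKM and ADF8, an actin depolymerizing factor, 47.5 FPKM. The transcription factors that start hair growth, RHD6 and RSL4, had 32.2 and 16.6 FPKM. Of the factors of the hairless cell files, GL2 had 46.7 FPKM, WER 12.8 FPKM and MYB23 9.30 FPKM. Of the 3 cortex markers, AT1G62510 had 118 FPKM and AT1G09750 had 98.9 FPKM, while AT1G62500 was listed at 0.

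Within the vascular core the levels were lower. Xylem vessel markers had a median of 5.01 FPKM, with CESA4 followed by the proteases XCP1 at 42.2 FPKM and XCP2 at 37.0 FPKM. The switches of vessel fate, VND7 and VND6, had 1.87 and 1.56 FPKM. Early vascular genes had a median of 7.95 FPKM, led by the cytokinin receptor AHK4 with 27 FPKM, SHR with 19.3 FPKM, LHW with 16.0 FPKM, HB-8 with 7.95 FPKM and TMO5 with 2.06 FPKM. AHP6, an inhibitor of cytokinin signalling beside the protoxylem, was listed at 0. Phloem markers had a median of 0.0603 FPKM: SUC2, the sucrose loader, had 9.57 FPKM and APL 4.90 FPKM, CALS7 had 0.109 FPKM, SEOR1 and NAC086 had 0.0118 and 0.0117 FPKM and NAC045 was listed at 0. Of the mature stele genes, the phosphate exporter PHO1 had 3.72 FPKM, HKT1 0.248 FPKM and SKOR 0.00712 FPKM.

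The tissues nearer the tip were low. Among root cap genes, SMB, BRN1 and FEZ were listed at 0, BRN2 had 0.139 FPKM and CEL5 had 1.42 FPKM. Among meristem and quiescent centre genes, PLT1, PLT2 and BBM were listed at 0, WOX5 had 0.130 FPKM and PLT3 had 1.13 FPKM. Of 11 green shoot genes 5 had at least 1 FPKM, against 57.7% of all protein-coding loci, and the list median was 0.621 FPKM. The 5 were PSAD-1 at 24.3 FPKM, PSBO1 at 13.3 FPKM, CAB1 at 5.71 FPKM, RCA at 2.29 FPKM and LHCA1 at 1.80 FPKM. LHB1B1 and CAB3 were listed at 0. In the flower list AP3 had 3.16 FPKM and PI 0.273 FPKM, while AG, AP1 and LFY were listed at 0. The seed storage genes had at most 1.34 FPKM (CRU3), with 1.76 FPKM for PPME1 as the highest pollen gene, and CRU2 was listed at 0.

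**Figure D4:**
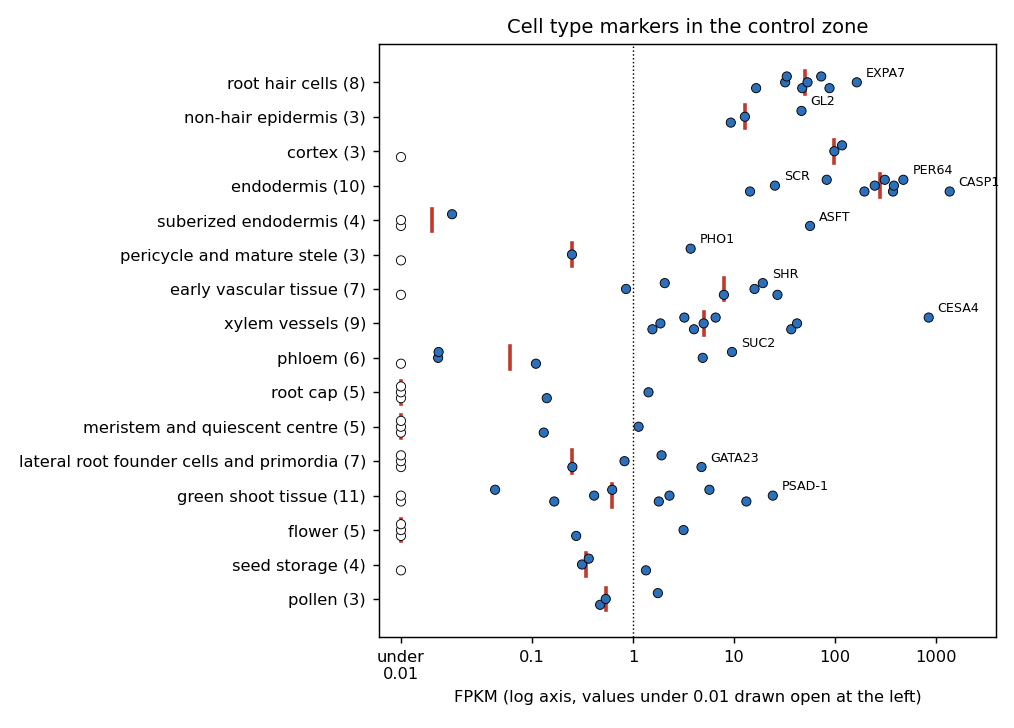
Points give the FPKM (log axis) of each marker gene of 16 tissue lists in the control zone, with open points at the left for values under 0.01 FPKM, and red bars give the list medians. Endodermis, cortex and root hair medians lie between 50.5 and 281 FPKM, while those of the root cap, the meristem and quiescent centre and the flower are 0.

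Markers of lateral root founder cells and primordia were low in this profile. GATA23, an early mark of founder cell identity, had 4.77 FPKM, LBD16 1.92 FPKM, LBD18 0.822 FPKM, MAKR4 0.250 FPKM and PUCHI 0.00792 FPKM, and LBD29 and LBD33 were listed at 0. Founder cells are few in such a zone, so low values in a bulk sample do not show their absence. In a wider list of 27 lateral root initiation genes, 17 had at least 1 FPKM, near the 57.7% of all protein-coding loci. The list median was 1.56 FPKM. The highest was EXPA17, an expansin linked to lateral root emergence, with 480 FPKM. The repressors IAA28 and IAA14 had 157 and 97.4 FPKM, TMO7, a small mobile regulator, had 154 FPKM, and the receptor kinase RLK7 had 54.4 FPKM. The expansin EXPA14 had 36.3 FPKM, and AT5G66815 had 16.4 FPKM. The receptor kinases HSL2, HAE, XIP1 and ACR4 had 1.68, 1.20, 0.698 and 0.541 FPKM. E2FA had 2.05 FPKM, FLP 1.56 FPKM and LBD17 1.31 FPKM. PLT5 had 0.163 FPKM, and PLT7 and the peptide gene IDA were listed at 0.

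Levels of the auxin response genes differed between steps. All 6 receptor genes had at least 1 FPKM: AFB1 had 81.0 FPKM, AFB2 41.9 FPKM, TIR1 31.6 FPKM, AFB3 19.5 FPKM, AFB5 19.1 FPKM and AFB4 3.70 FPKM. Of 28 Aux/IAA repressors, 19 had at least 1 FPKM, against 57.7% of all protein-coding loci. At least 100 FPKM was reached by 4, against 6.25%. IAA17 led with 455 FPKM, ahead of IAA9 with 261 FPKM, IAA28 with 157 FPKM, IAA16 with 155 FPKM and IAA14 with 97.4 FPKM. IAA18, the gene named for the potent line in the series title, had 10.6 FPKM. IAA15, IAA20, IAA30 and IAA33 were listed at 0.

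The response factors had a lower median, 1.87 FPKM, than the repressors they pair with, 8.45 FPKM. Of 23 ARF genes 12 had at least 1 FPKM, against 57.7% of all protein-coding loci. None passed 12.0 FPKM, the level of ARF7, an activator needed for lateral root initiation. ARF2 had 10.9 FPKM, ARF19 7.13 FPKM, ARF10 7.03 FPKM and ARF3 6.14 FPKM. ARF5, an activator of embryonic and vascular patterning, had 0.252 FPKM. ARF13, ARF14, ARF15, ARF20, ARF21, ARF22 and ARF23 were listed at 0.

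Of 15 auxin carriers, 11 had at least 1 FPKM, against 57.7% of all protein-coding loci, with a median of 12.4 FPKM. The uptake carriers LAX3 and AUX1 had 126 and 115 FPKM, against 1.21 FPKM for LAX2 and 0.292 FPKM for LAX1. Among the exporters PIN2, a carrier of the epidermis and cortex, had 61.4 FPKM, PIN7 20.3 FPKM, PIN3 12.4 FPKM and PIN4 10.4 FPKM, and PIN5, PIN6 and PIN8 were listed at 0. The ABC carriers ABCB19, ABCB4 and ABCB1 had 58.2, 42.4 and 41.3 FPKM. Synthesis genes had a lower median than the carriers, 0.819 FPKM, and 7 of 14 had at least 1 FPKM, against 57.7% of all protein-coding loci. YUC8 had 16.3 FPKM, YUC3 13.2 FPKM and TAA1 10.9 FPKM, and TAR1, YUC1, YUC2, YUC4, YUC10 and YUC11 were listed at 0. Of 10 genes that conjugate or oxidize auxin, 4 had at least 1 FPKM, against 57.7% of all protein-coding loci, led by GH3.17 with 20.8 FPKM. GH3.1, GH3.3 and GH3.2, widely used auxin response genes, had 0.536, 0.385 and 0.238 FPKM.

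**Figure D5:**
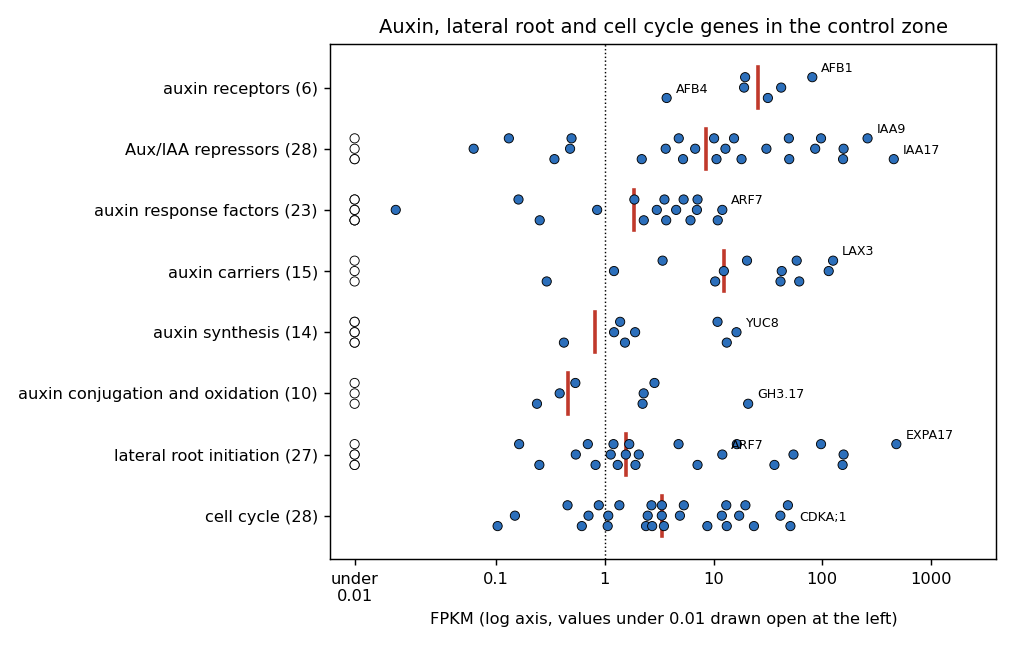
Points give the FPKM (log axis) of each gene of 8 auxin, lateral root and cell cycle lists in the control zone, with open points at the left for values under 0.01 FPKM and red bars for the medians. The 6 receptors lie between 3.70 and 81.0 FPKM, Aux/IAA repressors reach 455 FPKM and no ARF gene is above 12.0 FPKM.

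Cell cycle genes were mixed. Of 28 with a value, 22 had at least 1 FPKM, against 57.7% of all protein-coding loci. None was at 0, against 7346 of the 26100 protein-coding nuclear loci, and the median was 3.35 FPKM. The core kinase CDKA;1 had 51.0 FPKM, the G1 cyclin CYCD3;1 48.3 FPKM, the inhibitor KRP2 41.2 FPKM, CYCA3;2 23.5 FPKM and the replication clamp PCNA1 19.6 FPKM. Genes of DNA replication also included PCNA2 with 17.2 FPKM, MCM5 with 4.91 FPKM, MCM2 with 3.5 FPKM and RNR1 with 3.34 FPKM. The mitotic kinase CDKB1;1 had 13.2 FPKM and CDKB2;1 had 2.39 FPKM. The B-type cyclins of mitosis that were looked up and had a value all lay under 3 FPKM. CYCB1;4 had 2.48 FPKM, CYCB2;2 0.880 FPKM, CYCB1;2 0.708 FPKM, CYCB1;1 0.149 FPKM and CYCB1;3 0.103 FPKM, while CYCB2;1 had no value. The plate-forming syntaxin KNOLLE had 2.69 FPKM.

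Of 1149 transcription factor loci of 14 families recognized from the annotation's product names, 523 had at least 1 FPKM and 440 were listed at 0. At least 100 FPKM was reached by 22 of them. Over all protein-coding nuclear loci the shares were 57.7% at 1 FPKM or more and 6.25% at 100 FPKM or more. Of those 26100 loci, 7346 were listed at 0. Factors whose product name does not give their family are not counted. The median of the 1149 loci was 0.479 FPKM and they held 1.41% of the summed FPKM. IAA17 (listed as AXR3) was the highest. It was followed by the LIM proteins WLIM2b with 291 FPKM and WLIM1 with 280 FPKM, which the annotation describes as GATA-type factors although LIM proteins of this group are known to bind actin. Then came bZIP2 with 277 FPKM, IAA9, WLIM2a with 237 FPKM, NAC102 with 211 FPKM and MYB3R-4, an activator of mitotic genes, with 198 FPKM. The bHLH protein AT1G09250 had 170 FPKM and AT5G39240, an UPBEAT-like protein, 160 FPKM. Below IAA28, IAA16 and TMO7 (listed as BS1) stood BZIP61 with 129 FPKM and HB-1 with 123 FPKM.

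Other abundant families rested on a few genes. The 3 highest of 15 GASA loci held 99.9% of that class, GASA1, GASA4 and AT2G14900 (334 FPKM), and 9 were listed at 0. Over all protein-coding nuclear loci, 7346 of 26100 were listed at 0. Of 112 lipid transfer family loci 67 were listed at 0, yet the class held 1.45% of the summed FPKM through AT5G46890, AT4G12520 (1872 FPKM), AT5G46900 (1728 FPKM), AT4G12510 (1704 FPKM) and AT3G22620 (1063 FPKM). The first 4 form separate pairs of near copies. AT4G12510 and AT4G12520 differ at 2 of 390 coding bases and AT5G46890 and AT5G46900 at 10 of 384, so the division of reads within each pair is uncertain. Across the pairs, AT4G12510 and AT5G46890 were identical at 63.0% of aligned bases. Among dirigent proteins, 8 of 24 had at least 100 FPKM, against 6.25% of all protein-coding loci. DIR6 had 729 FPKM, AT2G39430 519 FPKM and AT3G55230 423 FPKM. In the glutathione transferases, GSTF8 and GSTU19 were followed by GSTF10 with 1016 FPKM, GSTU25 with 705 FPKM and GSTU24 with 363 FPKM.

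Among protein-coding loci with no described product, AT2G20820 with 811 FPKM, AT2G40765 with 787 FPKM and AT5G14330 with 782 FPKM followed AT1G55335 and AT5G10435. The next were AT2G30930 with 585 FPKM, AT1G70780 with 413 FPKM, AT4G00585 with 405 FPKM, AT4G23885 with 366 FPKM and AT4G09035 with 346 FPKM. These 10 encode between 57 and 164 residues. Over the biotypes, 217 snoRNA loci held 2.35% of the summed FPKM with a median of 26.2 FPKM, 3275 lncRNA loci 0.870%, 292 microRNA loci 0.614% and 76 antisense RNA loci 0.497%. The mitochondrial and plastid loci held 1.32% and 1.30%.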

How the data were processed

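Total RNA was sequenced from 9 oscillation zone samples, of which 3 are controls. Reads were processed with TopHat and TopHat2, Bowtie and Bowtie2, Cufflinks and Cuffdiff on TAIR10, per the submitters' processing notes, which list names alone. The deposited table has 1 control value per locus, taken as FPKM computed by the authors: its header names no unit, but the values are not whole and the notes name Cufflinks. Per-sample depth is unknown.

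Loci were ranked by that value as deposited, without a filter or pseudocount. Names, product texts, lengths and sequences came from RefSeq's TAIR10.1, which matched 30847 loci and not 277. Its 5 nuclear chromosomes were used, and the files hold no coordinates. Detection was set at 1 FPKM. Python 3.11.15, pandas 2.3.3 and Biopython 1.88 were used, and the motif search, member counts and medians were tested on simulated data.

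Named genes are the 25 highest loci, marker genes, the 15 highest transcription factors, the 10 highest undescribed loci, the highest class members and pathway list members. The 29 lists (308 entries, 302 with a value) and classes were chosen with earlier results of these data known. The values of some list members are not reported here.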

Additional observations from a re-analysis of the deposited data

How the results depend on the processing

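With a detection level of 0.5, 2 or 5 FPKM in place of 1 FPKM, 17257, 14325 and 11259 loci were counted in place of 15957, and 15059 with protein-coding nuclear loci only. The 100 highest loci held 20.6% of the sum, 19.8% with protein-coding nuclear loci only, 20.4% without loci under 500 bases and 20.6% without loci under 300 bases. Of the 25 highest loci, 19, 20 and 22 were kept under those 3 settings. Without the 100 highest loci, ribosomal proteins held 9.91% and mitochondrial respiration and ATP synthesis 3.15%, still the 2 highest classes, while arabinogalactan proteins held 0.790% (3rd to 8th) and GASA peptides 0.0471% (15th to 26th). Over members above 0 only, marker medians were 1.80 FPKM for green shoot tissue, 1.72 for flower, 0.822 for lateral root founder cells and primordia, 0.781 for the root cap, 0.632 for the meristem and quiescent centre, and 0.109 for phloem. Of 9 xylem markers, 5 reached 5 FPKM and 3 the median of loci above 0, while all endodermis, root hair and non-hair markers reached both. No paired analysis was possible because the deposited control value combines the 3 samples, and leaving out each replicate was not run for the same reason. Precision is limited by this single value and by the unknown depth.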

Other observations

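Clock genes differed widely in level, in zones taken at times of day that the labels do not give. GRP7 and GRP8, RNA-binding proteins driven by the clock, had 858 and 319 FPKM. Of the evening complex, ELF4 had 201 FPKM, LUX 20.7 FPKM and ELF3 7.86 FPKM. The evening gene TOC1 had 12.5 FPKM and PRR5 3.86 FPKM. The morning genes LHY and CCA1 had 1.74 and 0.106 FPKM, PRR7 had 0.0340 FPKM and PRR9 was listed at 0. GI had 0.808 FPKM and RVE8 0.380 FPKM.

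Of 9 genes of indole glucosinolate synthesis with a value, 8 had at least 1 FPKM, against 57.7% of all protein-coding loci. SOT16 had 51.7 FPKM, CYP81F4 39.2 FPKM, MYB34 25.3 FPKM and UGT74B1 17.4 FPKM, against 2.08 FPKM for MYB51 and 0.571 FPKM for CYP79B3. The 6 genes of the root triterpene clusters had a median of 2.72 FPKM. CYP71A16 had 17.0 FPKM while MRN1, the neighbouring synthase of the marneral cluster, was listed at 0. The thalianol genes CYP705A5, THAS1 and CYP708A2 had 5.81, 4.37 and 1.07 FPKM, and PEN1 had 0.370 FPKM.

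The 47 loci of the histone class had a median of 97.3 FPKM. Of them, 22 had at least 100 FPKM, against 6.25% of all protein-coding loci. AT4G40040 led with 882 FPKM, then AT5G10980 with 615 FPKM. Dehydrins and metallothioneins, 17 loci with a median of 6.03 FPKM and 3 listed at 0, ranged widely: the dehydrin ERD14 had 949 FPKM, AT1G54410 798 FPKM, LTI30 390 FPKM, ERD10 289 FPKM and LEA 0.0394 FPKM.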
